A study of Mus musculus with 6 samples.

Results

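The cytosolic ribosomal protein genes are the genes for the proteins of the large and the small subunit of the ribosome outside mitochondria. They were taken by name from the table of expected counts: Rpsa, and every name that begins with Rpl, Rps or Rplp and a digit, without the ribosomal protein kinases (names in Rps6k), Rps19bp1 and names of pseudogenes. Of 86 such names, 82 had at least 10 counts summed over the 6 libraries, 49 of the large and 33 of the small subunit, out of 24054 rows in the table. The member with the fewest counts was Rps27, with 236.2 summed counts, and the 4 names left out (Rpl10l, Rpl39l, Rpl3l and Rps4l) had none. All 82 members passed the filter on low counts and were among the 10975 genes tested.

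Total RNA was sequenced from 2 mouse lines, TIBxDNAJ-PKAc (genotype DNAJ-PKAc, 3 libraries A to C) and its parental line TIBx (genotype WT, 3 libraries A to C). Both are labelled liver BNL 1ME A.7R.1 and were grown in the same serum-containing medium with added glutamine, with no treatment named. DNAJ-PKAc joins part of DNAJB1, a co-chaperone, to the catalytic part of protein kinase A, and is the fusion kinase of fibrolamellar liver carcinoma. The sources used here do not give how the fusion was introduced or what promoter drives it. Each genotype is a single line. No label states that libraries A to C are separate cultures, so the spread behind each p-value may be technical.

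The libraries held between 8095549 and 9969590 expected counts each. Levels are given as CPM, counts scaled to library size with TMM, edgeR's factor for library makeup. Values of single libraries are in the order A, B, C within a group throughout. Prkaca, which encodes the kinase part of the fusion, stood at 131.2, 120.0 and 95.7 CPM in DNAJ-PKAc, against 63.6, 87.6 and 79.2 CPM in WT. Dnajb1, the other partner, was at 76.02, 72.25 and 44.35 CPM in DNAJ-PKAc and at 70.9, 63.72 and 57.96 CPM in WT, so its groups overlapped. Of 10 hepatocyte markers 9 had no count in any library, among them Alb, Hnf4a, Apoa1 and Ttr. The labelled liver origin was thus not seen in hepatocyte transcripts. Markers of stellate cells or fibroblasts summed to 15970 to 29500 CPM in DNAJ-PKAc and 24710 to 25930 CPM in WT. Of these, the mesenchymal gene Vim ranged over 11560 to 12610 CPM in DNAJ-PKAc and 12030 to 14220 CPM in WT. Col1a1 varied more, at 76.3, 66.4 and 461.1 CPM in DNAJ-PKAc and 194.9, 515.8 and 283.5 CPM in WT. Summed leukocyte markers were at 1.71 to 5.19 CPM in DNAJ-PKAc and 1.55 to 3.07 CPM in WT. Cholangiocyte markers summed to 364.6 to 3149 CPM in DNAJ-PKAc and 884.1 to 2151 CPM in WT. Summed endothelial and erythroid markers stayed at or below 0.975 CPM in DNAJ-PKAc and 2.21 CPM in WT. No count was found in 2 of 5 cholangiocyte, 1 of 8 stellate or fibroblast and 6 of 9 leukocyte markers. The same held for 2 of 5 endothelial and 3 of 5 erythroid markers, so a sum may rest on few genes. In WT B the nuclear RNA Malat1 was at 10856 CPM and the ribosomal precursor Rn45s took 2.66% of counts, against 1051 to 4796 CPM and 0.912% to 1.05% in the other libraries. The proliferation gene Mki67, chosen after its values were seen, stood at 467.6, 474.4 and 36.2 CPM in DNAJ-PKAc and at 106.6, 155.3 and 125.7 CPM in WT.

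A ribosome holds 1 copy of nearly every ribosomal protein, and the stalk proteins are the main exception. The genes are therefore transcribed at broadly matched rates, and their messenger RNAs, which begin with a terminal oligopyrimidine (TOP) tract, are translated together under control of mTORC1 and the RNA-binding protein LARP1. Surplus ribosomal proteins that find no ribosomal RNA partner are degraded, and a few of them bind the p53 regulator MDM2. Dividing cells spend a large part of their transcription and translation on this set.

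The start sites are shown first, since they hold the feature for which the set is known. In RefSeq promoters of GRCm38.p6 (250 bases before to 50 after each annotated start), 62 of the members matched by symbol. A C at the annotated start followed by at least 4 pyrimidines was present in 14 of these 62 genes (22.6%) and in 3.01% of the 27025 genes of the whole promoter table. A run of at least 8 pyrimidines that reached within 10 bases of the start was present in 29 (46.8%), against 15.8% of all genes. The share with a tract at the start was 18.9% in the large and 28% in the small subunit. The lines below give 30 bases from 10 before the start, 5′ to 3′ on the strand of the gene, for 5 members with a tract at the start. Capitals mark the pyrimidines from the annotated start on. In each window the run also reaches upstream of that base, in small letters.
Rps6, chr4:86857348-86857377, minus strand: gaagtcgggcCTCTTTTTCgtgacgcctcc
Rps10, chr17:27635225-27635254, minus strand: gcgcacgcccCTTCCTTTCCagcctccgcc
Rpl15, chr14:18270967-18270996, minus strand: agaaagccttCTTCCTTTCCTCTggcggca
Rpl28, chr7:4792955-4792984, plus strand: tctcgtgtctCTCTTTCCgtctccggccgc
Rpl35, chr2:39005112-39005141, minus strand: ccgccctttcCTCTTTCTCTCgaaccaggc

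The next 4 members head the comparison below and had no tract at the annotated base. Capitals mark the longest pyrimidine run of at least 5 bases in the window, where there is one.
Rps2, chr17:24720053-24720082, plus strand: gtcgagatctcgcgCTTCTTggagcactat
Rps26, chr10:128626487-128626516, minus strand: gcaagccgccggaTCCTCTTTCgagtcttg
Rpl6, chr5:121204491-121204520, plus strand: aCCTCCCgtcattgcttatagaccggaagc
Rpl7l1, chr17:46782637-46782666, minus strand: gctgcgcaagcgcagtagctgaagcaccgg
In Rps2 and Rps26 the run lies a few bases downstream of the annotated start, in Rpl6 it lies upstream, and in Rpl7l1, a paralog of Rpl7, there is none. An annotated start may differ by some bases from the start used, so a missing tract says only that these letters are not at this base. The 14 members with a tract at the start had a median log2 difference (DNAJ-PKAc minus WT, from the test described next) of 0.04, and the 48 without had one of 0.09. Of other motifs searched on both strands, CCGGAAG, the core bound by ETS family factors, was in 25 of the 62 genes (40.3%), against 9.93% of all genes. The palindrome TGACGTCA, the full cAMP response element bound by CREB, a substrate of protein kinase A, was in 5 of them (8.06%), against 2.03% of all genes. Those 5 were Rpl13, Rpl18, Rpl26, Rpl27a and Rps9, whose log2 differences were 0.18, 0.06, 1.20, -0.06 and -0.05. The shared reads of Rpl26 are described further on.

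The comparison asked whether the messenger RNAs of the ribosome differed between cells with the fusion kinase and their parents. No member passed the test: 0 of 49 large subunit and 0 of 33 small subunit genes reached an adjusted p of 0.05 (edgeR quasi-likelihood test on rounded expected counts, 2-sided, Benjamini-Hochberg over all genes tested), whereas 3.51% of all genes tested did. DESeq2 and limma-voom also called 0 members, with 8.87% and 3.56% of all genes called. At an unadjusted p under 0.05 there were 8 members, 6 with a positive and 2 with a negative difference, against 21.5% of all genes tested. The median log2 difference was 0.01 in the large subunit and 0.11 in the small subunit, beside 0.05 over all genes tested. The sign of the large subunit median depended on the scaling, at -0.04 with RLE and -0.07 with upper-quartile factors, when the median of all genes was 0.0019 and -0.02. In the large subunit 25 of 49 differences lay above 0, and in the small subunit 25 of 33.

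**Figure D1:**
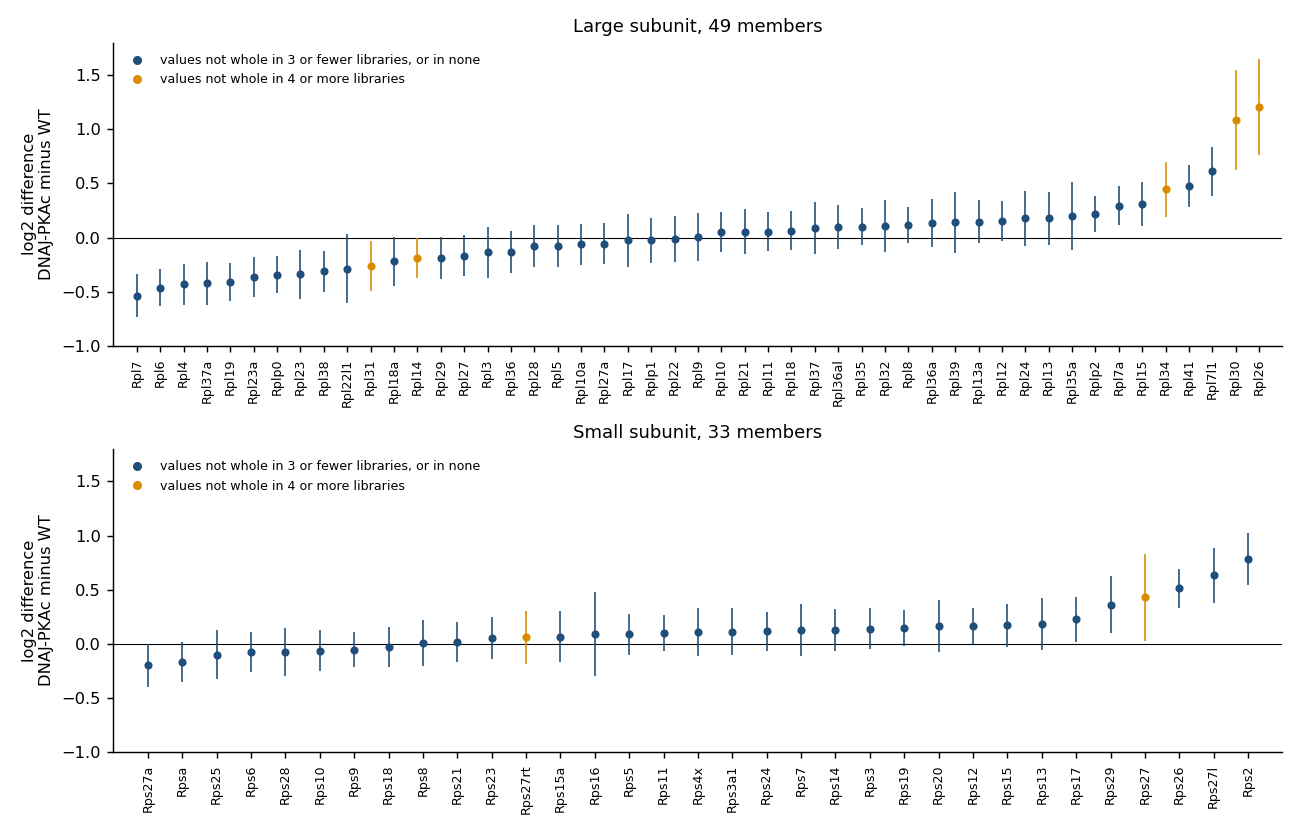
Fitted log2 difference in expression, DNAJ-PKAc minus WT (points; bars are 1 SE of the edgeR fit, 3 libraries a group), for each large subunit (top) and small subunit (bottom) gene, in order of size. Orange marks members whose deposited values were not whole in 4 or more libraries. The ends of the range are Rpl7 at -0.54 and Rpl26 at 1.20 in the large subunit, and Rps27a at -0.20 and Rps2 at 0.78 in the small subunit.

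Taken as one pool, the members made up 8.59%, 8.83% and 9.34% of all counts in DNAJ-PKAc, against 10.1%, 6.87% and 10.3% in WT. The WT libraries bracket the DNAJ-PKAc libraries, with WT B lowest of all 6, and WT A and WT C highest. The group averages were 8.92% ± 0.384 in DNAJ-PKAc and 9.09% ± 1.93 in WT (SD, n = 3 each), a difference smaller than the spread between WT libraries. In bulk RNA, fewer cells with high ribosomal protein transcripts and less such RNA per cell cannot be told apart.

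WT B set most of that spread. Its level was below the mean of WT A and C in 81 of 82 members, with a median log2 gap of -0.49, and it was the lowest of all 6 libraries in 63 members. The exception was Rps16, a small subunit gene with a low row for its kind. It stood at 72.7, 54.2 and 135.6 CPM in DNAJ-PKAc and at 63.0, 116.0 and 68.0 CPM in WT, so WT B was the highest WT library here, and DNAJ-PKAc C, high in most members, was the highest of all 6. The gap of WT B was larger in short genes, among 74 members left after those not whole in 4 or more libraries and Rps16 were set aside. Its median was -0.55 in the 24 members with under 400 coding bases, -0.47 in the 28 with 400 to 600 and -0.44 in the 22 with over 600. Across the 74, the gap correlated with log2 coding length at r = 0.385 (Spearman 0.385) and with transcript GC content at r = 0.486 (0.463). Genes are not independent replicates and the points share their libraries. The high Malat1 and Rn45s were seen in the same library, WT B, and their part in this gap was not tested. DNAJ-PKAc C had the next highest Malat1, at 4796 CPM. Its member medians lay above the WT mean, at log2 0.15 in the large and 0.22 in the small subunit.

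**Figure D2:**
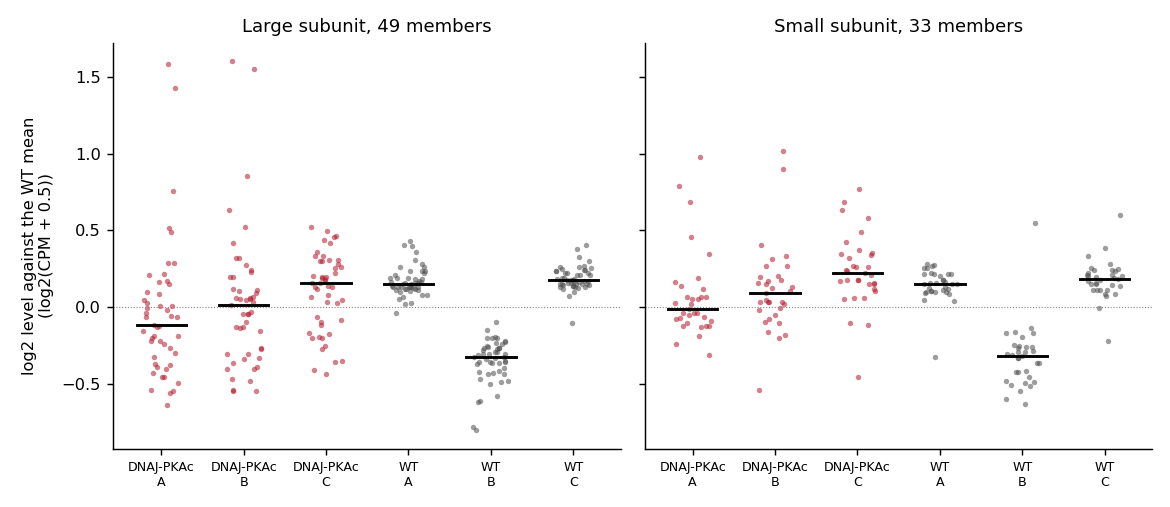
Level of each member in each library relative to its mean over the WT libraries, log2(CPM + 0.5), for the large (left) and small (right) subunit; points are genes and bars are medians. The DNAJ-PKAc libraries have medians of -0.11, 0.02 and 0.15 in the large subunit and -0.01, 0.09 and 0.22 in the small subunit, WT B has medians of -0.33 and -0.32, and WT A and C have medians between 0.15 and 0.19.

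Without WT B the median turned negative in both subunits, to -0.20 in the large and -0.09 in the small, beside 0.04 over all genes. Of the members, 41 of 49 and 24 of 33 lay below 0. No member passed the test then either, and 0.994% of all genes did. DNAJ-PKAc C differed from A and B in turn: 66 of 82 members were higher in C than the mean of A and B, with a median log2 gap of 0.19, while 7 members were lower in C than that mean by more than 0.4. Without DNAJ-PKAc C, 5 members were called, all higher in DNAJ-PKAc A and B than in WT (Rpl30, Rpl26, Rpl7l1, Rps2 and Rps27l), and 25.3% of all genes were called. With WT B and DNAJ-PKAc C both left out, which leaves 2 libraries a group, 7 members were called higher and 43 lower in DNAJ-PKAc (4 and 31 of the large, 3 and 12 of the small subunit), when 48.5% of all genes tested were called. That count depends on which libraries are left out. The pool share of the libraries kept was 8.59% and 8.83% in DNAJ-PKAc A and B, against 10.1% and 10.3% in WT A and C.

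The makeup of the pool does not depend on the scaling of a library, and here the groups separated. The ratio of large to small subunit counts was 1.36, 1.33 and 1.45 in DNAJ-PKAc, against 1.53, 1.52 and 1.56 in WT. Every DNAJ-PKAc library lay below every WT library, and WT B, low in total, sat with the other WT libraries. The averages were 1.38 ± 0.0614 in DNAJ-PKAc and 1.535 ± 0.02 in WT (SD, n = 3 each). DNAJ-PKAc held relatively fewer large subunit and more small subunit counts. With Rps2 left out the ratio averaged 1.456 ± 0.041 in DNAJ-PKAc and 1.586 ± 0.0149 in WT (SD, n = 3 each), again without overlap. Per kilobase of transcript it was 1.24, 1.22 and 1.28 in DNAJ-PKAc, against 1.36, 1.33 and 1.37 in WT. The groups stayed apart when any 1 of the 82 members was left out, in sums that share their other members and are not independent. Without the 10 members of smallest adjusted p the groups lay closer but apart (1.27, 1.24 and 1.34 in DNAJ-PKAc, against 1.36, 1.35 and 1.38 in WT). The DNAJ-PKAc average was then 0.94 of the WT average, against 0.90 with all members. For single genes in CPM, the groups did not overlap in 28.9% of all genes tested. That rate is not one for ratios of summed counts, for which none was computed. No p is given for a score over chosen members.

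**Figure D3:**
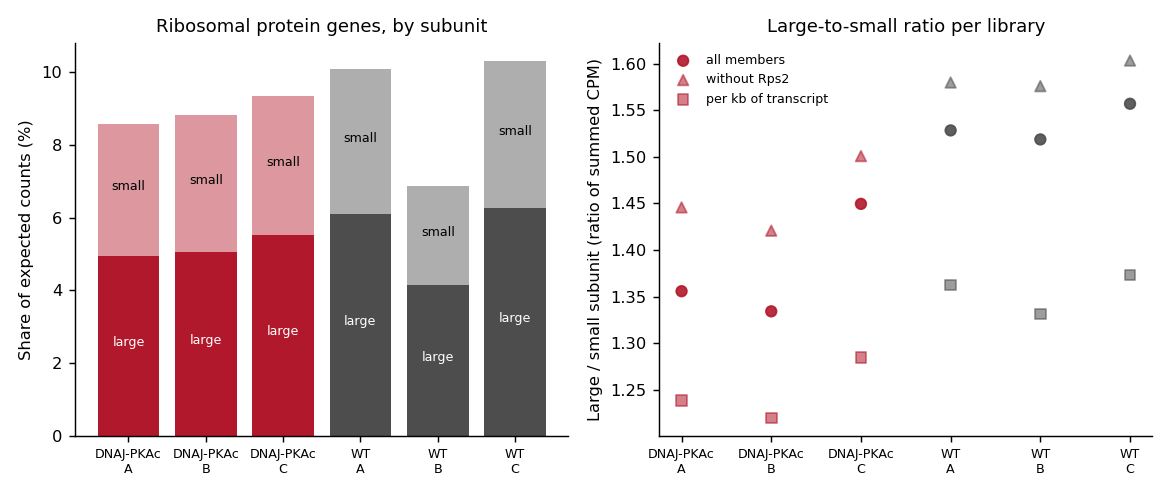
Left, share of all expected counts in each library taken by large (dark) and small (pale) subunit genes, in percent. Right, ratio of large to small subunit CPM in each library for all members (circles), without Rps2 (triangles) and per kilobase of transcript (squares), on an axis that does not start at 0; all 3 DNAJ-PKAc libraries lie below all 3 WT libraries by each measure.

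Single genes were then set against the pool, which describes their shares and not how much each added to the ratio. Divided by the summed member counts of each library, 31 of 82 members had groups that did not overlap, against 22.9% of all genes tested, for which the same division was made. In the large subunit 8 such members were higher and 13 lower in DNAJ-PKAc, and in the small subunit 8 were higher and 2 lower. Plain CPM gave no overlap in 13 members (9 higher and 4 lower), against 28.9% of all genes tested. The members make up the sum by which they were divided, so the division takes out variation they share and does not do so for other genes. In a fit with libraries scaled to that sum, 0 members and 1.85% of all genes passed, and Rpl7 had the smallest adjusted p of the members (log2 difference -0.53, SE 0.14, edgeR adjusted p = 0.131).

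Of the large subunit members, Rpl7 (chr1:16101295-16104433), an RNA-binding protein of the large subunit, stood at 1782, 1983 and 2051 CPM in DNAJ-PKAc, against 3084, 2158 and 3202 CPM in WT. The groups did not overlap, although WT B came close to DNAJ-PKAc C (log2 difference -0.54, SE 0.20, edgeR adjusted p = 0.193). As a share of all member counts the separation was wide, at 2.10%, 2.25% and 2.12% in DNAJ-PKAc and 3.15%, 3.01% and 3.20% in WT. Its paralog Rpl7l1 (chr17:46773907-46782656), which works in large subunit assembly, went the other way, at 188.0, 201.1 and 121.7 CPM in DNAJ-PKAc and 121.3, 96.9 and 116.4 CPM in WT. In DNAJ-PKAc C, Rpl7l1 was at the level of WT A (log2 difference 0.61, SE 0.22, edgeR adjusted p = 0.185). Without DNAJ-PKAc C it was called (log2 0.80, adjusted p = 0.0106).

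Rpl6 (chr5:121204501-121209241), which sits on the solvent side of the large subunit, stood at 1232, 1359 and 1355 CPM in DNAJ-PKAc, against 1881, 1536 and 2020 CPM in WT. Its groups did not overlap, with a log2 difference of -0.46 (SE 0.17, edgeR adjusted p = 0.186). Rpl4, which lines part of the peptide exit tunnel, was at 2.41%, 2.35% and 2.72% of member counts in DNAJ-PKAc and at 3.13%, 3.66% and 3.40% in WT, so its shares did not overlap. Its CPM touched, with 2623 in DNAJ-PKAc C and 2622 in WT B. Rpl19 was at 1470, 1453 and 1663 CPM in DNAJ-PKAc and at 2163, 1691 and 2237 CPM in WT (log2 difference -0.41, SE 0.18, edgeR adjusted p = 0.235). Rpl23a, at the mouth of the exit tunnel where nascent chain factors dock, held 1.32%, 1.33% and 1.31% of member counts in DNAJ-PKAc and 1.69%, 1.69% and 1.72% in WT. Its CPM overlapped, with 1267 in DNAJ-PKAc C and 1207 in WT B, and it did not pass (log2 difference -0.37, SE 0.19, edgeR adjusted p = 0.296). Rpl37a held 0.826%, 0.791% and 0.936% in DNAJ-PKAc and 1.13%, 1.17% and 1.14% in WT.

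Other large subunit members had higher shares in DNAJ-PKAc. Rpl41 (chr10:128548110-128549168), the smallest protein of the ribosome, stood at 2318, 2327 and 2229 CPM in DNAJ-PKAc, against 1906, 1266 and 1773 CPM in WT. The groups did not overlap (log2 difference 0.48, SE 0.20, edgeR adjusted p = 0.220), and its share of member counts was 2.74%, 2.64% and 2.31% in DNAJ-PKAc and 1.94%, 1.77% and 1.77% in WT. Rpl7a, a protein of the large subunit that also binds RNA, was at 2408, 2460 and 2485 CPM in DNAJ-PKAc and at 2201, 1587 and 2206 CPM in WT (log2 difference 0.29, SE 0.18, edgeR adjusted p = 0.370). Reads of Rpl7a could in part belong to Ciapin1, whose transcripts match it on the opposite strand. Rpl15 held 1.31%, 1.31% and 1.40% of member counts in DNAJ-PKAc and 1.11%, 1.04% and 1.09% in WT.

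The stalk recruits the translation factors that split GTP, and its genes differed in sign. Rplp0, its base, stood at 1759, 1718 and 1701 CPM in DNAJ-PKAc, against 2350, 1810 and 2402 CPM in WT (log2 difference -0.34, SE 0.17, edgeR adjusted p = 0.287). Rplp2 was at 671.1, 630.8 and 634.4 CPM in DNAJ-PKAc and at 612.6, 457.5 and 596.8 CPM in WT (log2 0.22, SE 0.17, adjusted p = 0.468). Rplp1, the partner with which Rplp2 forms a dimer, had a log2 difference of -0.03 (SE 0.21, adjusted p = 0.949). Rpl5 and Rpl11, which bind MDM2 when free of the ribosome, did not pass the test. Rpl5 was at 1742 ± 175 CPM in DNAJ-PKAc and 1837 ± 347 CPM in WT, and Rpl11 was at 580.8 ± 39.8 CPM in DNAJ-PKAc and 559.1 ± 93.3 CPM in WT (SD, n = 3 each). The groups overlapped in both, with log2 differences of -0.08 (SE 0.20) and 0.05 (SE 0.18).

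In the small subunit Rps2 (chr17:24718121-24721927), which lies at the entry of the messenger RNA channel, had the largest difference. It stood at 2238, 2306 and 1348 CPM in DNAJ-PKAc, against 1262, 1033 and 1132 CPM in WT. The groups did not overlap, but DNAJ-PKAc C lay close to WT A and far from DNAJ-PKAc A and B (log2 difference 0.78, SE 0.24, edgeR adjusted p = 0.134). Without DNAJ-PKAc C, Rps2 was called (log2 0.99, adjusted p = 0.00548). Mki67, at 36.2 CPM in DNAJ-PKAc C, was low in the same library, and its part in this was not tested. Rps27l, a p53-responsive paralog of Rps27, was likewise highest in DNAJ-PKAc A and B, at 137.9, 148.9 and 89.8 CPM in DNAJ-PKAc and 95.2, 61.9 and 85.9 CPM in WT (log2 difference 0.63, SE 0.25, edgeR adjusted p = 0.212). Its groups overlapped, since DNAJ-PKAc C lay below WT A, and it was called without DNAJ-PKAc C (adjusted p = 0.0255).

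Rps26 (chr10:128624529-128626506), which contacts messenger RNA just upstream of the start codon during initiation, kept its separation in all 3 DNAJ-PKAc libraries. It stood at 743.2, 716.7 and 869.6 CPM in DNAJ-PKAc, against 600, 451.5 and 582.7 CPM in WT. DNAJ-PKAc C was the highest of the 6 libraries (log2 difference 0.51, SE 0.18, edgeR adjusted p = 0.172). Its share of member counts was 0.877%, 0.812% and 0.900% in DNAJ-PKAc and 0.612%, 0.631% and 0.582% in WT. Transcripts of Med21 match Rps26 on the opposite strand. Rps29 held 0.509% ± 0.021 of member counts in DNAJ-PKAc and 0.388% ± 0.0672 in WT (SD, n = 3 each), without overlap. As a share of small subunit counts alone its groups overlapped, with 1.136% in DNAJ-PKAc B and 1.141% in WT C. Its CPM overlapped, at 433.2, 429.7 and 510.6 in DNAJ-PKAc and 395.7, 225.2 and 446.9 in WT (log2 difference 0.36, SE 0.26, edgeR adjusted p = 0.437), and without WT B the log2 difference was 0.0768.

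**Figure D4:**
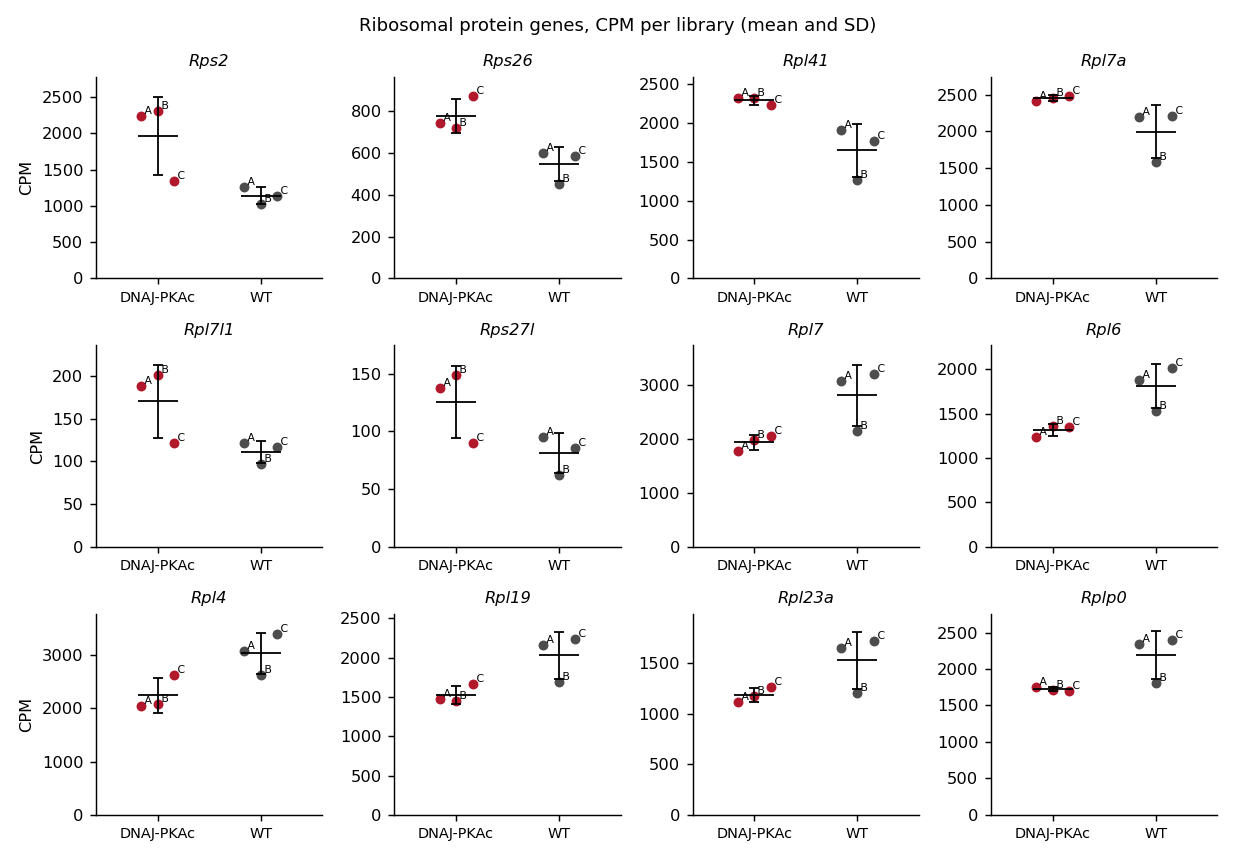
CPM of 12 members in each library, with the group mean and SD (n = 3 each), from axes that start at 0; letters name the libraries. Rps26, Rpl41 and Rpl7a are higher in every DNAJ-PKAc library than in any WT library, Rps2, Rpl7l1 and Rps27l are highest in DNAJ-PKAc A and B, and Rpl7, Rpl6, Rpl19 and Rplp0 are lower in every DNAJ-PKAc library than in any WT library.

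Rps6, the substrate of the S6 kinases, was at 1764 ± 152 CPM in DNAJ-PKAc and 1858 ± 326 CPM in WT (SD, n = 3 each), a log2 difference of -0.08 (SE 0.19, edgeR adjusted p = 0.839). Rps19, the gene most often mutated in human Diamond-Blackfan anaemia, was at 1009, 999.4 and 999.6 CPM in DNAJ-PKAc, the narrowest range relative to its mean of any named member, and at 968.7, 757.5 and 992.0 CPM in WT (log2 0.15, SE 0.17, adjusted p = 0.620). Rpsa, which doubles as a laminin receptor, was at 3485, 3565 and 2644 CPM in DNAJ-PKAc and at 3876, 3217 and 3807 CPM in WT. Rps27a, made as a fusion with ubiquitin, had the lowest small subunit difference, at -0.20 (SE 0.20, adjusted p = 0.579). Rps3 and Rpl13a, with known functions in DNA repair and in translational silencing of inflammatory transcripts, had log2 differences of 0.14 and 0.15 (SE 0.19 and 0.20). The X-linked members Rpl10, Rpl36a, Rpl39 and Rps4x lay between 0.05 and 0.14, with adjusted p from 0.752 to 0.887.

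Levels per length differed among the paralogs of core members. Per kilobase of transcript, over the 6 libraries, Rpl7l1 averaged 107.6 CPM, Rpl22l1 203.6 CPM, Rps27l 206.9 CPM, Rpl36al 308.3 CPM and Rps27rt 2264 CPM. The row of Rps27rt is uncertain, since its transcript is nearly that of Rps27, as described further on. The highest members, Rps12 and Rpl41, averaged 5622 and 4508 CPM. Rps12 ranged over 4599 to 6352 CPM per kilobase and Rpl41 over 2897 to 5325, so these neighbours overlap. Rpl22l1 was at 84.2, 102.5 and 102.2 CPM in DNAJ-PKAc, against 144.5, 62.6 and 145.4 CPM in WT, with WT B lowest and the other WT libraries highest (log2 difference -0.29, SE 0.32, edgeR adjusted p = 0.617). Its log2 difference was -0.63 without WT B, -0.11 without WT A and -0.10 without WT C. Its partner Rpl22 had a log2 difference of -0.02 (SE 0.21, adjusted p = 0.965), and Rpl36al, the partner of Rpl36a, one of 0.10 (SE 0.21, adjusted p = 0.805). The paralogs Rpl10l, Rpl39l, Rpl3l and Rps4l, for the most part known from testis or muscle, had 0 counts in every library. Rpl3, the partner of Rpl3l at the peptidyl transferase centre, was at 1769, 1731 and 2788 CPM in DNAJ-PKAc and at 2379, 1989 and 2543 CPM in WT (log2 -0.14, SE 0.24, edgeR adjusted p = 0.756).

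Ribosomal protein genes have many processed copies, and where a copy is nearly identical the counting program has to divide reads between it and the gene. Expected counts that are not whole show this. Values were whole in every library in 73 members, and 7 members had values that were not whole in 4 or more libraries. The 7 include Rpl31, for which no near copy was found. Transcripts of 8 members matched another gene of the table on the same strand, over at least 50% of their length and at 95% identity or more. In the most extreme pair, Rps27 held 0.523% of the counts and the retrogene copy Rps27rt the rest, with transcripts 100% identical over 98.8% of the length. Rps27 was at 5.87, 3.73 and 5.66 CPM in DNAJ-PKAc and at 3.57, 2.06 and 5.51 CPM in WT, while Rps27rt was at 741.9, 824.0 and 1027 CPM in DNAJ-PKAc and at 928.1, 578.4 and 980.1 CPM in WT. Either row alone is therefore uncertain. The lines below show 30 bases around both annotated starts. Capitals mark the first 20 bases of a run of 38 that the RefSeq sequences share.
Rps27, chr3:90213628-90213657, minus strand: gctttcgctcCTTTCCGGCGGTGACGACCT
Rps27rt, chr9:114982720-114982749, minus strand: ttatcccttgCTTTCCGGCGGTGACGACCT

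The largest fitted differences of the large subunit belong to members of this kind. Rpl26 (chr11:68901566-68904534), a large subunit protein that also binds p53 messenger RNA, was at 62.6, 63.3 and 22.6 CPM in DNAJ-PKAc, against 27.9, 13.2 and 23.5 CPM in WT. Its log2 difference was 1.20 (SE 0.44, edgeR adjusted p = 0.191). Rpl26 held 41.4%, 44.0% and 11.4% of the counts of itself and its copy Gm15772 in DNAJ-PKAc, and 12.6%, 7.23% and 9.44% in WT. With the pair summed the difference turned to -0.41 (SE 0.20, adjusted p = 0.272), from sums of 151.1, 143.9 and 197.5 CPM in DNAJ-PKAc and 221.6, 181.9 and 248.8 CPM in WT. For Rpl30 and its copy Gm12191 the sum kept the sign of the row. The row of Rpl30 had a log2 difference of 1.09 (SE 0.47, edgeR adjusted p = 0.235), and the sum of both one of 0.10 (SE 0.23, adjusted p = 0.819). The rows of the copies differed, with log2 differences of -0.77 for Gm15772 and -0.0071 for Gm12191. For Rpl34 and Rpl34-ps1 the row gave 0.44 and the sum 0.11. The calls of Rpl26 and Rpl30 without DNAJ-PKAc C concern rows that hold 18.8% and 10.4% of their pair's counts.

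**Figure D5:**
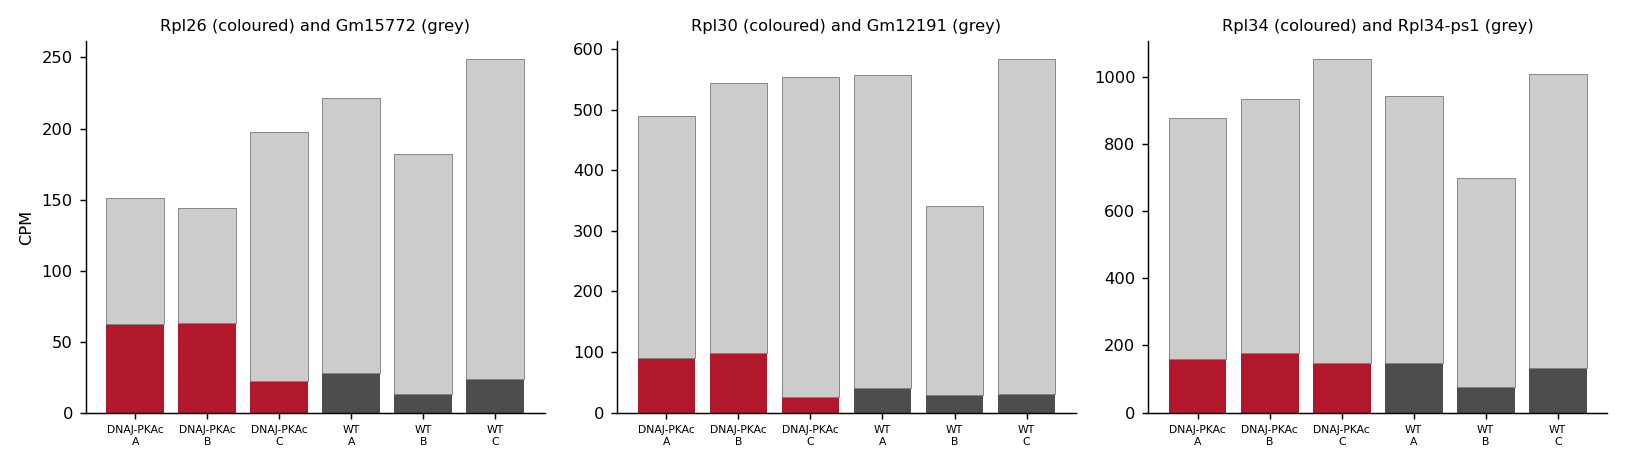
CPM per library of Rpl26, Rpl30 and Rpl34 (coloured, lower part of each bar) and of the copy that shares their reads (grey, upper part). The coloured part is tallest in DNAJ-PKAc A and B in each panel, while the whole bars do not follow that order.

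Ribosomal protein genes whose names fall outside the naming rule were tested beside the members, and 0 were called. Gnb2l1 (Rack1), a scaffold on the small subunit head, was at 1998, 1990 and 2594 CPM in DNAJ-PKAc, against 3220, 2331 and 3312 CPM in WT (log2 difference -0.43, SE 0.21, edgeR adjusted p = 0.276). DNAJ-PKAc C lay above WT B, so the groups overlapped. Fau, a ubiquitin-like fusion with a small subunit protein, was at 702.2, 667.3 and 895.9 CPM in DNAJ-PKAc and at 818.9, 735.3 and 835.2 CPM in WT (log2 -0.08, SE 0.17, adjusted p = 0.819).

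Genes that build the ribosome were examined beside its proteins, in lists chosen with earlier results of these data known. No gene was called among 30 assembly factors of the small subunit, 40 of the large subunit, 13 proteins of small nucleolar ribonucleoproteins and the nucleolus, 16 of RNA polymerase I and its factors, and 13 chaperones of free ribosomal proteins. Their median log2 differences were 0.31, 0.24, 0.51, 0.27 and 0.29, each above the 0.05 of all genes tested. The libraries split in another way than the ribosomal proteins did. Small subunit assembly factors had medians against the WT mean of 0.51, 0.52 and -0.19 in DNAJ-PKAc, against 0.03, -0.02 and -0.03 in WT. Nucleolar proteins had medians of 0.67, 0.79 and -0.30 in DNAJ-PKAc, against 0.14, -0.10 and -0.07 in WT. In both lists DNAJ-PKAc A and B were high and DNAJ-PKAc C was low, as in Mki67, whose part was not tested. Without DNAJ-PKAc C, 14 of 30, 14 of 40, 9 of 13, 4 of 16 and 3 of 13 genes of the 5 lists were called higher, beside the 25.3% of all genes, and 0 were called lower.

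Single genes of these lists gave both shapes. Nop56, a core protein of box C/D particles that guide ribosomal RNA methylation, was at 213.2, 208.8 and 85.4 CPM in DNAJ-PKAc, against 113.3, 96.3 and 101.3 CPM in WT (log2 difference 0.71, SE 0.34, edgeR adjusted p = 0.268; 0.00328 without DNAJ-PKAc C). Emg1, a ribosomal RNA methyltransferase, was at 217.9, 214.0 and 126.0 CPM in DNAJ-PKAc and at 120.8, 89.97 and 105.2 CPM in WT (log2 0.82, SE 0.25, adjusted p = 0.130). Eif6, which keeps free large subunits from joining small ones, was instead highest in DNAJ-PKAc C, at 273.9, 259.0 and 385.3 CPM in DNAJ-PKAc and 200.3, 162.0 and 181.9 CPM in WT (log2 0.75, SE 0.20, adjusted p = 0.102). Surf6, a nucleolar assembly factor, was at 38.1, 37.3 and 38.0 CPM in DNAJ-PKAc and at 26.4, 22.9 and 27.1 CPM in WT, with a spread within DNAJ-PKAc under 1 CPM (log2 0.57, SE 0.15, adjusted p = 0.102). Imp3, of the small subunit processome, was lower in each DNAJ-PKAc library, at 32.3, 28.0 and 24.1 CPM in DNAJ-PKAc and 45.4, 38.6 and 47.3 CPM in WT (log2 -0.64, SE 0.18, adjusted p = 0.115). The other genes of smallest adjusted p were Nhp2l1 of the box C/D particles (log2 0.51, adjusted p = 0.258), the polymerase I genes Znrd1 and Rrn3 (0.59 and 0.57, adjusted p = 0.154 and 0.155), and the chaperone Aamp and importin Ipo5 (-0.41 and -0.50, adjusted p = 0.170 and 0.224).

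Translation factors and the regulators of TOP messenger RNAs were also without calls. The 36 initiation factors tested had a median log2 difference of 0.03 and the 13 elongation and release factors one of 0.10. Of 19 genes of mTORC1, the S6 kinases and LARP proteins, Rptor, the subunit of mTORC1 that recruits substrates, was at 67.5, 64.8 and 89.2 CPM in DNAJ-PKAc, against 140.4, 244.9 and 134.1 CPM in WT. The groups did not overlap (log2 difference -1.23, SE 0.28, edgeR adjusted p = 0.0649). Deptor, an inhibitor of mTOR, was at 10.5, 11.6 and 23.5 CPM in DNAJ-PKAc and at 3.18, 6.07 and 4.31 CPM in WT (log2 1.75, SE 0.41, adjusted p = 0.0744). Both passed without DNAJ-PKAc C (edgeR adjusted p = 0.0181 and 0.0203). Eif4e, which binds the messenger RNA cap, was at 242.4, 272.7 and 161.7 CPM in DNAJ-PKAc and at 146.0, 117.9 and 146.5 CPM in WT (log2 0.72, SE 0.23, adjusted p = 0.140). Eif2s3x, Etf1 and Abce1, of initiation, release and recycling, had log2 differences of 0.42, 0.53 and 0.45 (adjusted p = 0.220, 0.196 and 0.300). Without DNAJ-PKAc C these 4 genes passed too, with edgeR adjusted p of 0.00763 for Eif4e, 0.034 for Eif2s3x, 0.0113 for Etf1 and 0.0205 for Abce1. In that fit 7 initiation factors were called higher and 1 lower, 4 elongation and release factors higher and 0 lower, and 4 genes of the mTORC1 list higher and 2 lower, beside the 25.3% of all genes.

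The remaining lists held few differences. The 9 host genes of small nucleolar RNAs, which also start in TOP tracts but are not translated into stable proteins, had a median log2 difference of -0.05. Among them Snhg8 and Snhg6 went opposite ways, at 0.96 (SE 0.28, edgeR adjusted p = 0.124) and -0.71 (SE 0.22, adjusted p = 0.143). Of 6 genes that link free ribosomal proteins to p53, the smallest adjusted p were those of Mdm2 (log2 0.24, adjusted p = 0.533) and Myc (log2 -0.26, adjusted p = 0.558). The 12 genes of ribosome collision and rescue had a median of 0.05, with Hbs1l, which helps release stalled ribosomes, at 0.55 (SE 0.15, adjusted p = 0.112) and Gigyf2 at 0.54 (SE 0.18, adjusted p = 0.154).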

How the data were processed

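The authors deposited expected counts, with a row for each gene symbol and 1 column for each of the 6 libraries, not normalized. The submitters' processing notes name STAR 2.5.2b, RSEM 1.3.0 and mm10 and give none of them a role. The sources used here state neither the annotation nor how strand was treated in counting, although the kit for total RNA was a stranded one, per the labels' protocols. In each library, 1.52% to 1.68% of the values were not whole.

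Counts were rounded, genes kept by filterByExpr (minimum count 10), libraries scaled by TMM, and edgeR 4.0.16 (R 4.3.3) fitted with robust quasi-likelihood dispersions and group as the only term. Adjusted p-values are over all 10975 genes, with a threshold of 0.05. Shares and ratios use the counts as deposited. Per-library medians use log2(CPM + 0.5). Near-copies came from BLAST 2.17.0 of GENCODE M21 transcripts. Lengths are those of the shortest protein-coding transcript, those with a CCDS entry first. Promoters and coordinates (1-based) are RefSeq's on GRCm38.p6.

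The members and the gene lists were chosen with earlier results of these data known. Named were, per subunit, the 4 members of smallest adjusted p and the 2 highest and 2 lowest differences; paralogs with partners; stalk proteins; Rpl5, Rpl11, Rps6, Rps19, Rpsa, Rps27a, Rpl10, Rpl13a and Rps3; and in each other list the 2 genes of smallest adjusted p. A gene that this rule names is not reported here. Further members were named for their share of the pool after values were seen. Alternatives were RLE and upper-quartile factors, TMM without members, structural RNA left out, 2 other filters, DESeq2 1.42.0, limma-voom (limma 3.58.1), no robust option, truncated counts, a block for the replicate letter, fits without each library, and a fit without WT B and DNAJ-PKAc C. Summing copies, scaling to the pool and leaving Rps2 out were added after the data were seen.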

Additional observations from a re-analysis of the deposited data

How the results depend on the processing

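Over 20 alternatives, 539 of the fits of the 30 named members kept the direction and side of the threshold, 39 changed sign and 21 newly passed with the sign kept. Of those that changed sign, 2 also newly passed (Rps27rt and Rpl39, without WT B and DNAJ-PKAc C), so 23 newly passed in all. Leaving out 1 library moved the members called higher between 0 and 3 in the large and 0 and 2 in the small subunit. Without WT B and DNAJ-PKAc C together there were 4 and 31 large subunit members called higher and lower (median -0.29) and 3 and 12 small subunit members (median -0.17). The cause was not tested. In that fit the log2 difference turned to -0.012 in Rps29, -0.18 in Rpl36a, -0.33 in Rps27rt, -0.19 in Rpl10, -0.28 in Rpl39, -0.16 in Rps4x, -0.18 in Rpl11, -0.012 in Rps19, -0.13 in Rpl13a and -0.11 in Rps3. Upper-quartile factors turned Rps27rt to -0.0181, Rpl10 to -0.0236 and Rpl11 to -0.0197. Summing copies turned Rpl26 to -0.41. Limma-voom turned Rplp1 to 0.0023.

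Leaving out 1 library at a time changed signs near 0. The ranges were -0.22 to 0.10 in Rpl22, -0.10 to 0.25 in Rpl36a, -0.0802 to 0.23 in Rpl36al, -0.19 to 0.20 in Rps27rt, -0.12 to 0.14 in Rpl10, -0.15 to 0.30 in Rpl39, -0.13 to 0.23 in Rps4x, -0.25 to 0.0916 in Rplp1, -0.27 to 0.0164 in Rpl5, -0.12 to 0.14 in Rpl11, -0.26 to 0.0124 in Rps6, -0.0098 to 0.22 in Rps19, -0.0543 to 0.25 in Rpl13a and -0.0526 to 0.23 in Rps3. With the sign kept, they were -0.63 to -0.10 in Rpl22l1, -0.40 to -0.0139 in Rpl3, -0.40 to -0.0918 in Rps27a and 0.0768 to 0.56 in Rps29. The log2 ratio of the large-to-small ratios (DNAJ-PKAc over WT) ran from -0.19 to -0.13 when libraries were left out. Searching the tract within 10 bases of the start gave 46.8% of members in place of 22.6%.

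The replicate block called 0 members, gave medians of 0.04 in the large and 0.11 in the small subunit, turned Rplp1 to 0.0008 and called 199 of all genes in place of 385. Deviations of same-lettered libraries correlated at 0.211, -0.198 and 0.028 for A, B and C, and 2 of 6 libraries matched their own letter best, so the letters were not taken as pairs. With 3 libraries a group an exact permutation test of 1 value cannot go below 0.1, and a typical member's SE of 0.20 limits what could be called.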
